A study of Mus musculus with 6 samples.

Results

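Imprinting control regions are stretches of DNA that carry methylation on the copy inherited from 1 parent, and 19 such mm9 intervals of the mouse genome were taken by position. Of these, 16 are methylated in the oocyte and 3 in sperm. The intervals are 2 to 20 kb long and hold 2956 of the 20782144 CpG sites of the deposited table. Whole-genome bisulfite sequencing, which turns unmethylated cytosines into thymines in the reads and leaves methylated ones, was done in mouse embryonic stem cells that all lacked the DNA methyltransferases DNMT1, DNMT3A and DNMT3B. One line was given DNMT3A2, the shorter DNMT3A isoform of stem cells and germ cells. Another was given DNMT3B1, a catalytically active DNMT3B isoform. The remaining line was a SETD2 knockout with DNMT3B1, SETD2 being the methyltransferase that places the H3K36me3 mark on transcribed gene bodies. Each line has 2 sequencing runs (6 samples) and its labels name no separate cultures, so the lines count as 1 library each and were compared without p-values. The sources used here do not give what drives each introduced enzyme or whether a line is 1 clone. Cells that still had their own DNMT1, DNMT3A and DNMT3B were not analysed here.

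Most germline marks are set in the egg or sperm by the de novo enzyme DNMT3A together with DNMT3L, and a mark is then held through cell division by DNMT1. The zinc finger protein ZFP57 binds the methylated hexamer TGCCGC at these regions and helps to protect the mark from erasure. Embryonic stem cells that lose DNMT1 lose the mark, and giving DNMT1 back does not restore it without passage through the germline. Several of the intervals contain a promoter that is silent on the marked copy, and others act on genes at a distance.

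The promoters of Plagl1, Mcts2 and Nap1l5 are printed as examples. They are given from RefSeq (GRCm38.p6), each from 250 bases before to 50 bases after the gene's start, 300 bases in all, 5′ to 3′. Capitals mark CpGs at which at least 20% of reads were methylated in the DNMT3A2 line. Of the 10 regions with a promoter placed in the interval, such CpGs were found only in Plagl1 and Mcts2. Plagl1 encodes a zinc finger transcription factor, and its promoter (chr10:13090582-13090881, plus strand) holds 8 such CpGs in 1 block. Mcts2 is a retrogene inside another gene, and its promoter (chr2:152686898-152687197, plus strand) holds 5. Nap1l5 is a further retrogene, and its promoter (chr6:58907077-58907376, minus strand) holds none and is shown for contrast.
Plagl1: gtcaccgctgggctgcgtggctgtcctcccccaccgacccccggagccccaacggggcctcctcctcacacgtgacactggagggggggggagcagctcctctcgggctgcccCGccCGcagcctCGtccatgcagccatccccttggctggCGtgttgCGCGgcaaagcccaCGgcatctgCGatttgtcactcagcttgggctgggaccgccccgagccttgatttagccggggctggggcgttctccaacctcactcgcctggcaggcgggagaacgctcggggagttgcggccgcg
Mcts2: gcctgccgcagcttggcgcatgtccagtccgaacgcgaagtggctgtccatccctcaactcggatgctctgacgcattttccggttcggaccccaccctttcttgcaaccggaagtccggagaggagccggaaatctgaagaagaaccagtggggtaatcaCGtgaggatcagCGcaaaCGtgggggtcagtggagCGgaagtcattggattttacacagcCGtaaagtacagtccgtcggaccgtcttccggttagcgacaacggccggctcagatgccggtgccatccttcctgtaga
Nap1l5: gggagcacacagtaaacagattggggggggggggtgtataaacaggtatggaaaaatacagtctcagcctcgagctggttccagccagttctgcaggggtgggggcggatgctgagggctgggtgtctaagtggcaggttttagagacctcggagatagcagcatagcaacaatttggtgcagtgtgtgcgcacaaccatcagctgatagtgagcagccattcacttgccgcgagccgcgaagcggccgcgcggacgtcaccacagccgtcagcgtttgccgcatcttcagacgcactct
The sites of the mm9 table were laid on these letters by the spacing of their CpGs, and no coordinates were converted. All 26 CpGs of the Plagl1 promoter, 24 of 25 of Mcts2 and all 17 of Nap1l5 matched at a single place on their chromosome.

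The 8 capital CpGs of the Plagl1 promoter were covered by 34 to 37 reads each in the DNMT3A2 line. The CpG just before the block, at base 104, was covered by 11 reads and the one just after it, at base 211, by 12, and neither had a methylated read. Over the whole promoter 28.9% of reads were methylated in the DNMT3A2 line (134 of 463) and 20.5% in the DNMT3B1 line (90 of 438). In the SETD2 knockout 1 of 281 reads was methylated. In Mcts2 the promoter level was 10.0% with DNMT3A2 (38 of 380), 4.08% with DNMT3B1 (19 of 466) and 0 of 581 reads in the knockout. Where a limit stands beside a count of 0, it is 3 reads of the total, here 0.516%. The Nap1l5 promoter had no methylated read in any line, at 145, 358 and 194 reads.

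Levels are the methylated share of all reads over an interval's CpG sites, with exact 95% binomial (Clopper-Pearson) intervals that cover counting error only. Read counts, here and throughout, are summed over CpG sites, so a read that spans several CpGs is counted at each of them. The 95% intervals, the limits and the calls below treat these counts as independent. Where reads span several CpGs, the 95% intervals are therefore too narrow and the limits too low. Sites were kept when every line had at least 5 reads and no line exceeded 5 times its median coverage, which left 1918 sites in the regions. The intervals held 31 (Snrpn) to 456 (Gnas) such sites, at a mean coverage of 10.2 to 23.5 reads with DNMT3A2, 9.68 to 27.0 with DNMT3B1 and 14.5 to 35.0 in the knockout. Genome-wide, over 7065841 sites kept in this way, the DNMT3A2 line stood at 7.28%, the DNMT3B1 line at 2.75% and the knockout at 5.87%. In the DNMT3A2 and DNMT3B1 lines short, deeply read stretches held many of the methylated reads of Plagl1, H19, Zrsr1 and Gnas, whose levels include them, and the levels outside them are given below. Whether those reads are whole-genome fragments or targeted, amplified DNA was not tested.

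Most of the regions were weakly methylated in every line. The medians were 1.07% (DNMT3A2), 0.446% (DNMT3B1) and 0.848% (knockout), and 8, 12 and 11 of the 19 lay below 1%. Only 2 regions exceeded the genome-wide level with DNMT3A2, H19 and Plagl1, and 3 did with DNMT3B1, these and Mcts2. None did in the SETD2 knockout, where the highest level was 2.95% (Rasgrf1, 21 of 713 reads). Snrpn, a promoter of the gene cluster lost in Prader-Willi syndrome, had no methylated read in 341, 300 and 521 reads (limits 0.880%, 1.00% and 0.576%).

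**Figure D1:**
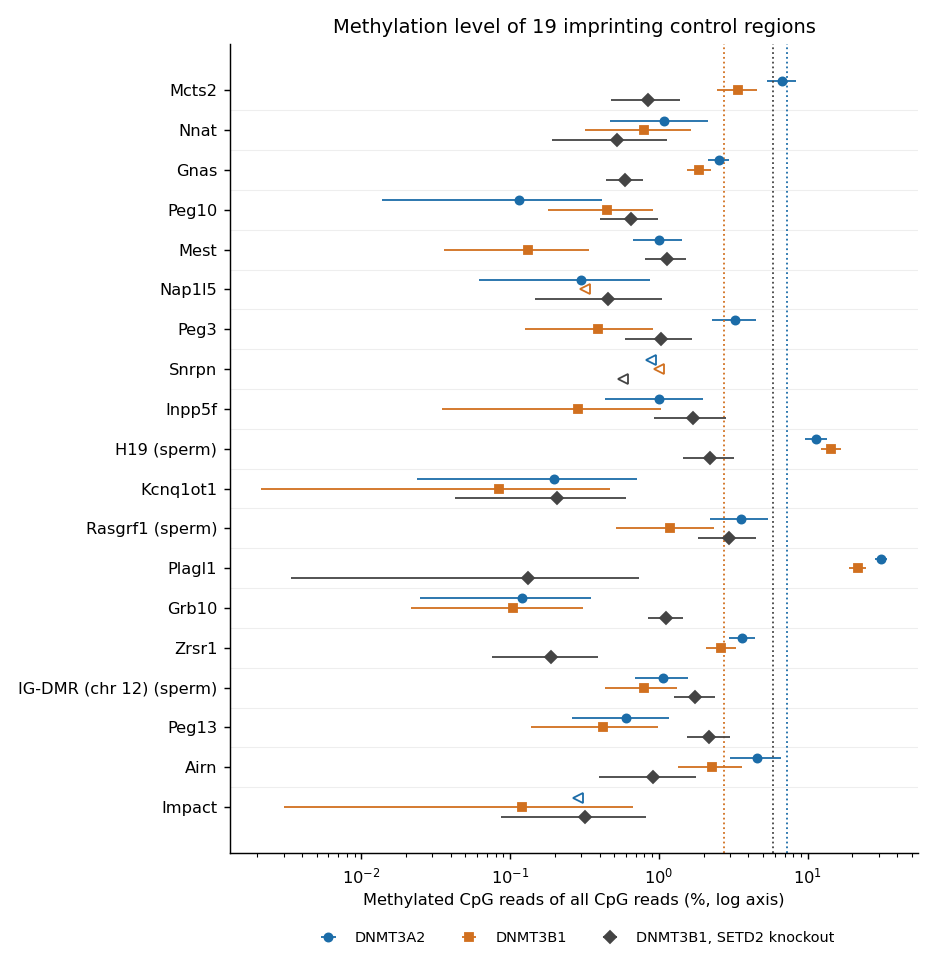
Methylation level of each region in the 3 lines (x axis, percent of CpG reads, log scale), with exact 95% binomial intervals as bars and 1 library per line. Open triangles stand at the upper limit for regions with no methylated read, and dotted lines give each line's genome-wide level. Plagl1 stands at 31.1%, 21.8% and 0.132%, and most other regions lie at or below 1% in at least 1 line.

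CpG-dense DNA is weakly methylated in these lines, so each region was set against the level of sites of like CpG density in the same line (observed over expected methylated reads, in 11 density bins). The 19 regions had median log2 ratios of -1.42 (DNMT3A2), -0.77 (DNMT3B1) and -1.25 (knockout). Over 134906 windows of 4 kb elsewhere the medians were -0.03, -0.20 and -0.04. These windows had at least 10 CpGs per kb and were not matched in density to the regions, whose means were 20.9 to 94.0 CpGs per kb. The shares of windows given here and below are thus not shares of equally dense DNA. A region was counted as higher or lower at 2-fold or more with an exact Poisson 95% interval excluding no difference. With DNMT3A2, 10 of 19 regions were lower, where 15.6% of windows were, and 3 were higher, where 5.24% were. With DNMT3B1, 4 were lower (15.5% of windows) and 5 were higher (9.52%). In the SETD2 knockout 13 were lower (13% of windows) and 0 were higher (3.19%).

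The regions above their density were Plagl1, Mcts2 and Zrsr1 in both lines with SETD2, and in addition Gnas and H19 with DNMT3B1. Plagl1 stood 48.4-fold above expectation with DNMT3A2 and 77.0-fold with DNMT3B1. Mcts2 stood 3.86-fold and 4.68-fold above it. Zrsr1, a retrogene that encodes a splicing factor relative, stood 2.08-fold and 4.15-fold above it. Gnas, the locus of the stimulatory G protein alpha subunit, was 2.58-fold and H19, the control region of the H19 noncoding RNA and Igf2, was 6.44-fold above expectation with DNMT3B1. In the knockout 4 of these 5 were counted as lower, and Mcts2 stood at a log2 ratio of -0.97 (-1.81 to -0.25). The lower calls of H19 and Plagl1 in the knockout ended with 1 cluster of 500 bp left out. With 1 cluster of 500 bp left out, the log2 ratio of Mcts2 turned from 1.95 to -1.11 with DNMT3A2 and fell from 2.23 to 0.28 with DNMT3B1. Likewise that of Zrsr1 with DNMT3A2 went from 1.06 to 0.46 and that of Gnas with DNMT3B1 from 1.37 to 0.81, and these calls ended. Being higher in both lines and lower in the knockout relative to DNMT3B1 held for 3 of 19 regions (Mcts2, Plagl1 and Zrsr1) and for 0.412% of windows. Of the 3, Plagl1 alone kept each of these calls with every cluster left out in turn.

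**Figure D2:**
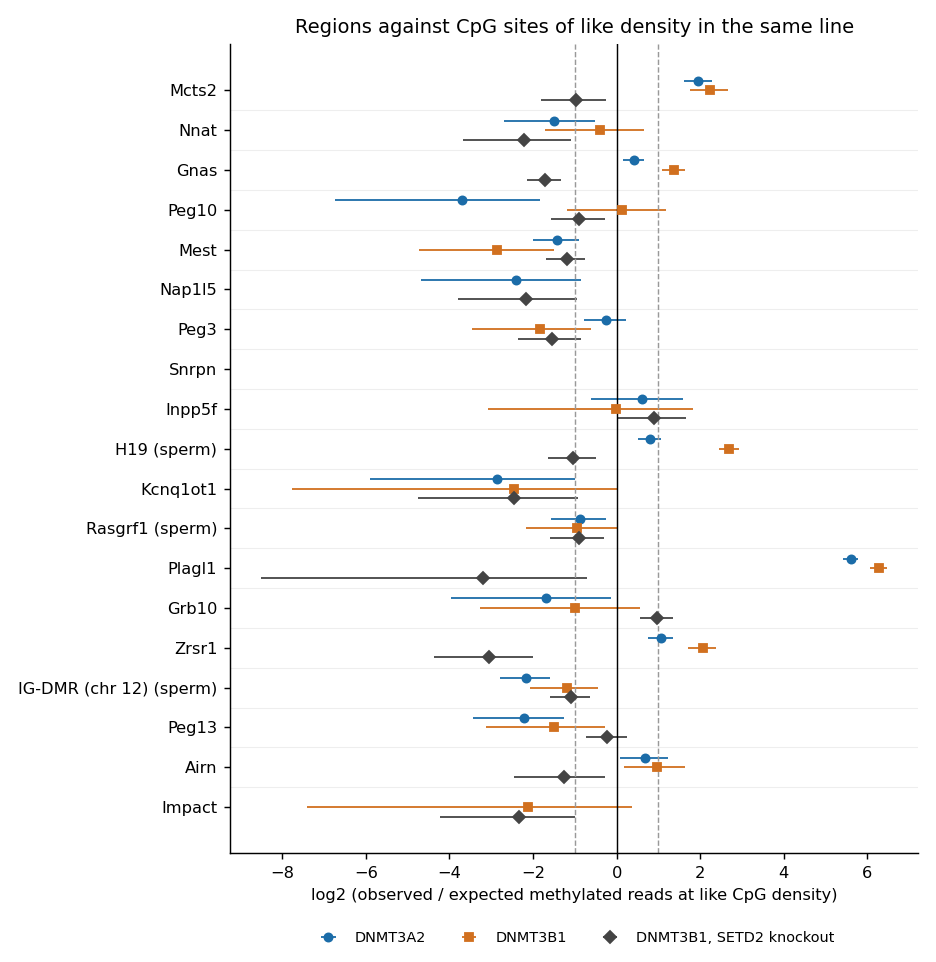
Observed over expected methylated reads of each region in the 3 lines (x axis, log2), where the expectation is the level of sites of like CpG density in the same line. Bars are exact Poisson 95% intervals, dashed lines mark 2-fold, and regions with no methylated read have no point. Plagl1 lies at 5.60 with DNMT3A2 and 6.27 with DNMT3B1 and at -3.20 in the knockout.

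The methylation of Plagl1 was not spread over the interval. In 3 short stretches of 5, 8 and 13 neighbouring CpGs (67, 71 and 89 bp long), every CpG was methylated in at least 20% of reads in both lines with SETD2. These 26 CpGs held 99.0% of the methylated reads of the interval with DNMT3A2 (485 of 490) and 98.5% with DNMT3B1 (326 of 331). These shares, and the values in and outside stretches below, count every covered site, without the coverage limits used for the levels of whole intervals. The knockout, however, was listed only at sites of at least 10 reads, so its values rest on fewer sites (77 of 108 listed in Plagl1). Outside them the level was 0.728% (5 of 687 reads) with DNMT3A2, 0.693% (5 of 721) with DNMT3B1 and 0.526% (4 of 761) in the knockout, whose intervals overlap. The rule for such a stretch was chosen after the values were seen. It asks for at least 3 CpGs at most 100 bp apart, each with at least 5 reads, 3 methylated reads and 20% methylation in both lines.

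In the stretch of 13 CpGs, on chromosome 10 from 12810846 to 12810934, 272 of 486 reads were methylated with DNMT3A2 (56.0%, 51.4% to 60.4%). With DNMT3B1 it was 187 of 468 (39.96%, 35.5% to 44.6%), and in the knockout 0 of 224 (limit 1.34%). Among the 48 sites within 400 bp beside it, 0 of 412 reads were methylated with DNMT3A2 and 2 of 530 with DNMT3B1. The change from methylated to unmethylated fell between adjacent CpGs. Because counts are summed over CpGs, 1 read can enter the 486 up to 13 times.

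Coverage changed at the same places. The stretch of 13 CpGs was read 37.4 times per CpG against 8.58 beside it with DNMT3A2 (4.36-fold), and 36.0 against 11.04 with DNMT3B1 (3.26-fold). In the knockout it was 17.2 against 14.2 (1.21-fold). Here and below, knockout depths leave out sites under 10 reads, which were not listed, so they rest on fewer sites than those of the other lines. With DNMT3A2 the stretch from 12810307 to 12810373 was read 3.26 times as deeply as its surroundings, and the one from 12810501 to 12810571, which is the block of capitals printed above, 3.68 times. Methylated reads made up 20.9 of the 37.4 reads per CpG in the stretch of 13 with DNMT3A2, and unmethylated reads numbered 16.5 there against 8.58 beside it.

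**Figure D3:**
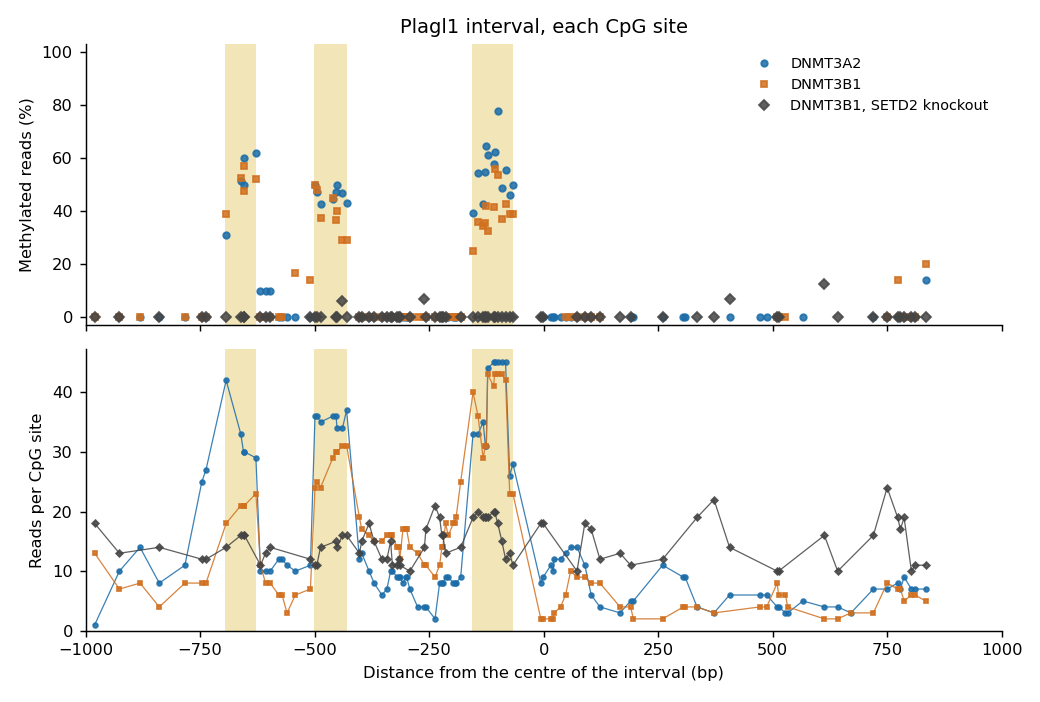
Each CpG site of the Plagl1 interval by its distance from the centre (bp), with the percent of methylated reads above (sites of at least 5 reads) and the number of reads below, in the 3 lines. Shaded are the 3 methylated stretches. Methylation and read depth rise and fall at the same CpGs with DNMT3A2 and DNMT3B1. The knockout shows no such rise in methylation, and its depth is drawn only at sites of at least 10 reads.

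Stretches of this kind were found in 3 further regions. H19 held 1, of 8 CpGs on chromosome 7 from 149767925 to 149768046, with 104 of 275 reads methylated with DNMT3A2 (37.8%), 115 of 194 with DNMT3B1 (59.3%) and 0 of 120 in the knockout (limit 2.5%). It held 87.4% and 74.2% of the methylated reads of the interval, and beside it 0 of 238 and 1 of 183 reads were methylated. Its coverage was 34.4 against 15.9 beside it with DNMT3A2 and 15.0 against 15.1 in the knockout. Outside the stretch H19 stood at 1.55% with DNMT3A2, 3.79% with DNMT3B1 and 2.13% in the knockout.

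Zrsr1 held 1 stretch of 5 CpGs on chromosome 11 from 22873999 to 22874117, at 36.8% (78 of 212 reads), 36.3% (70 of 193) and 0 of 159 reads in the knockout (limit 1.89%). It held 60.5% and 64.2% of the methylated reads of the interval in the lines with SETD2. Within 400 bp beside it 11.7% (49 of 418) and 6.90% (34 of 493) of reads were methylated in these lines, and 0 of 551 in the knockout. Outside the stretch Zrsr1 stood at 1.76% (51 of 2901), 1.13% (39 of 3442) and 0.815% (36 of 4418). Beyond the 750 bp from 22873751 to 22874500, with sites over 5 times the median coverage left out, it was 4 of 2630, 5 of 2573 and 36 of 3980 reads. Gnas held 2 stretches of 4 CpGs each on chromosome 2. The stretch from 174120815 to 174120863 stood at 43.6% and 38.8%, and the one from 174121013 to 174121071 at 51.6% and 55.1%. The knockout had 0 of 43 (limit 6.98%) and 0 of 81 (limit 3.70%) methylated reads in them. Beside these stretches of Gnas 9.51% and 9.62% of reads were methylated with DNMT3A2, and 7.10% and 7.27% with DNMT3B1. In Gnas the stretches held a smaller share of the methylated reads, 32.6% with DNMT3A2 and 45.7% with DNMT3B1, and the level outside them was 1.55%, 0.978% and 0.732%.

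Mcts2, Airn and the chromosome 12 region had patches that fell short of the rule. In Mcts2, 10 sites reached 20% with DNMT3A2 and 2 with DNMT3B1, and 48 of 72 covered sites had no methylated read with DNMT3A2. In Airn, the noncoding RNA that silences Igf2r, 2 sites held 24 of the 26 methylated reads of the interval with DNMT3A2 and all 17 with DNMT3B1. They stood at 68.6% (24 of 35 reads), 28.8% (17 of 59) and 2 of 25 reads in the knockout. The whole Airn interval stood at 4.59%, 2.29% and 0.908%. It was counted as lower than its density in the knockout (log2 ratio -1.25), a call that ended with 1 cluster of 500 bp left out. In the chromosome 12 region 5 sites from 110764501 to 110764750 stood at 13.7% (10 of 73 reads), 10.1% (12 of 119) and 0 of 100 reads in the knockout, and held 21.7% and 54.5% of the methylated reads of the interval.

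**Figure D4:**
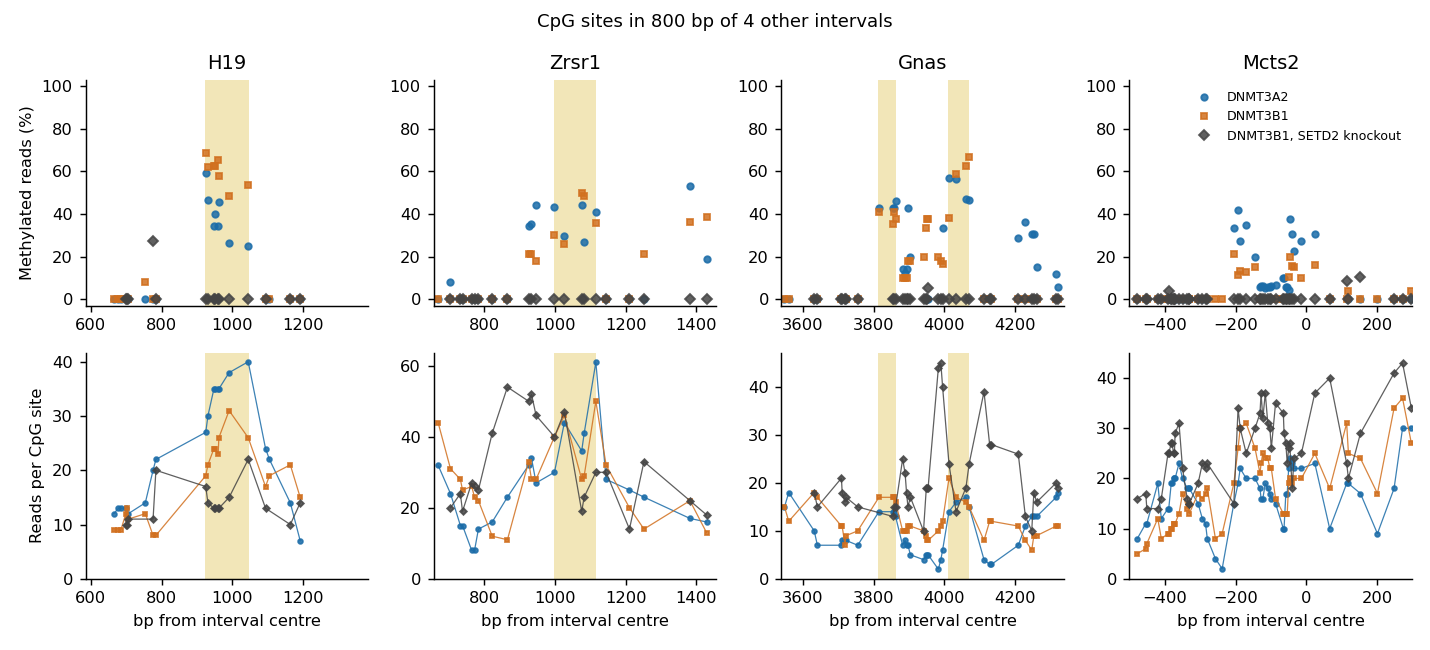
CpG sites in 800 bp of H19, Zrsr1, Gnas and Mcts2 by distance from the interval's centre (bp), with the percent of methylated reads above and the number of reads below, in the 3 lines. Shaded are stretches that met the rule. Methylated CpGs of the DNMT3A2 and DNMT3B1 lines share the 800 bp with CpGs at 0, and all CpGs of the knockout lie at 0 within the shading.

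In all, 7 stretches in 4 regions met the rule, with 47 CpGs, each stretch 49 to 122 bp long. Their levels ran from 36.8% to 56.0% with DNMT3A2 and from 36.3% to 59.3% with DNMT3B1. Pooled, the knockout had 1 methylated read of 786 in them (0.127%, 0.00322% to 0.707%). The rule sets high levels in the lines with SETD2 and did not use the knockout, so a lower level in the knockout is partly built in. Among bins of 250 bp with at least 10 CpGs, 4 of 108 in the regions (3.70%) were at least 20% methylated in both lines with SETD2, against 0.0109% elsewhere (10 of 91423). They lie in Plagl1, H19 and Gnas, those of Gnas being adjacent. With at least 5 CpGs and 10% the shares were 5.59% (9 of 161) and 1.29% (4563 of 353600). The bins were picked on these same values, so the shares are descriptive only. Elsewhere in the genome 134 stretches met the same rule, and the knockout was methylated there at 13.3% pooled. It had no methylated read in 22 of the 109 of these that it covered, and in 6 of the 7 within the regions. Coverage in the 7 stretches was 1.67 to 4.36 times that beside them with DNMT3A2, 1.49 to 3.26 times with DNMT3B1, and 0.689 to 1.21 times in the knockout. Sites under 10 reads are missing from the knockout values, in the stretches and beside them, so its ratios cannot be set directly against the others. A step of at least 1.5-fold in both lines with SETD2 was met by 6 of the 7, and by 16.4% of the 134 stretches elsewhere.

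**Figure D5:**
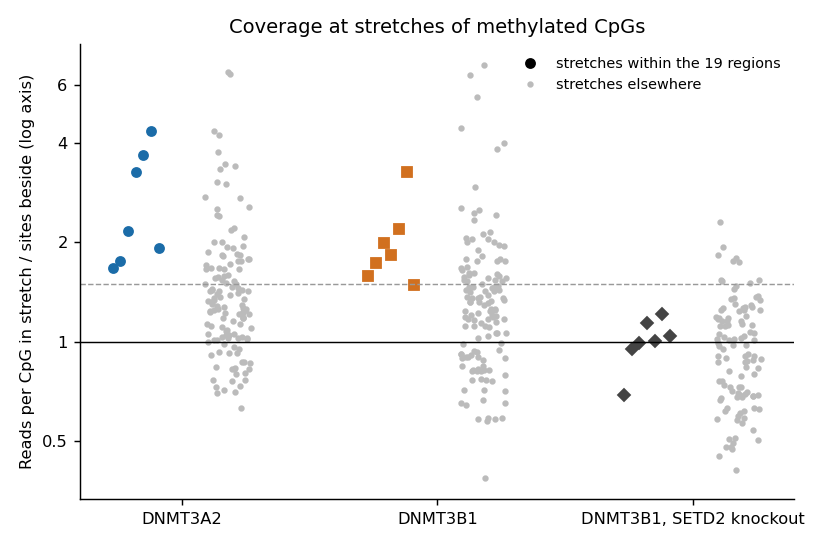
Reads per CpG in each methylated stretch over those of sites within 400 bp beside it (y axis, log scale), in each line. Large symbols are the 7 stretches within the regions and grey points the stretches elsewhere, and the dashed line marks 1.5-fold. The 7 stretches have medians of 2.17 with DNMT3A2, 1.83 with DNMT3B1 and 1.00 in the knockout. Knockout ratios leave out sites under 10 reads and are not directly comparable with the others.

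Both lines with the stretches were sequenced once on a MiSeq and once on a HiSeq 2000 according to their titles, while the titles of the knockout name single and paired-end reads only. Their values came as 1 set per line, so the share of each sequencing run in the stretches was not tested. Loss of SETD2 and the sequencing of the knockout cannot be told apart at these sites. When sites of more than 2 times the median coverage were left out, an alternative chosen after these data were seen, Plagl1 fell to 1.65% with DNMT3A2, 1.01% with DNMT3B1 and 0 of 397 reads in the knockout, over 28 sites. H19 then stood at 1.28%, 0.730% and 1.07%. Gnas stood at 2.67%, 2.01% and 0.733%, and the 5 sites left in Zrsr1 stood at 8.33% (4 of 48 reads), 10.6% (5 of 47) and 0 of 86. With that limit 0 regions were above their density with DNMT3A2 and 3 with DNMT3B1, namely Gnas, Zrsr1 and Peg10 (4 of 310 reads). The 19 regions pooled stood at 1.91%, 1.16% and 0.930% with that limit and at 3.05%, 2.16% and 0.8998% without it.

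The other oocyte-marked regions were counted as higher than their density in no line. Peg10, derived from a retrotransposon and needed in the placenta, had 2 of 1750 methylated reads with DNMT3A2, 7 of 1570 with DNMT3B1 and 21 of 3247 in the knockout. Mest, which encodes a hydrolase-like protein, stood at 0.999%, 0.133% and 1.13%, and was lower than its density in all 3 lines. Kcnq1ot1, a silencing noncoding RNA, had 2 of 1016, 1 of 1192 and 3 of 1452 methylated reads. The Impact region, named for a regulator of translation, had 0 of 1045 (limit 0.287%), 1 of 832 and 4 of 1248.

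Nap1l5 had 3 of 1009 methylated reads with DNMT3A2, 0 of 946 (limit 0.317%) with DNMT3B1 and 5 of 1102 in the knockout. Nnat, which encodes a small membrane protein of neurons, stood at 1.09%, 0.797% and 0.522%, with 6 to 8 methylated reads per line. Peg3, a zinc finger gene, stood at 3.27% (35 of 1071) with DNMT3A2, above both 0.390% (5 of 1283) with DNMT3B1 and 1.03% (16 of 1560) in the knockout. Against its density Peg3 was not counted with DNMT3A2 (log2 ratio -0.26, -0.78 to 0.21) and was lower in the other lines. Inpp5f, a phosphatase gene, was counted as neither higher nor lower in any line, at 1.00%, 0.286% and 1.69%.

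In Grb10 and Peg13 the knockout stood above both lines with SETD2, with intervals that do not overlap. Grb10, which encodes an adaptor that restrains growth, was the most CpG-dense interval (94.0 CpGs per kb). It had 3 of 2491 methylated reads with DNMT3A2, 3 of 2856 with DNMT3B1 and 55 of 4906 (1.12%, 0.846% to 1.46%) in the knockout. Peg13, a noncoding RNA, stood at 0.599%, 0.422% and 2.18% (36 of 1648). Other DNA of at least 80 CpGs per kb stood at 0.173%, 0.141% and 0.415% in the same order of lines. From the density of each of its sites, 0.574% was expected for Grb10 in the knockout, and the 1.95-fold excess was not counted. Peg13, at 36.5 CpGs per kb, stood at 0.855 times its expectation in the knockout. It was counted as lower than its density with DNMT3A2 (log2 ratio -2.23) and with DNMT3B1 (-1.50).

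The 3 sperm-marked regions did not move together. H19 is described above. The intergenic differentially methylated region on chromosome 12 stood at 1.07% (25 of 2343), 0.794% (14 of 1764) and 1.76% (39 of 2214), below its density in every line. Rasgrf1, an imprinted exchange factor gene, stood at 3.57%, 1.19% and 2.95% and was not counted in any line. The median of the sperm-marked regions was 3.57%, 1.19% and 2.21%, and that of the 16 oocyte-marked regions 1.00%, 0.406% and 0.620%. The sperm-marked intervals were also among the less CpG-dense, at 20.9 (Rasgrf1), 26.5 (chromosome 12) and 27.4 (H19) CpGs per kb.

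To compare lines, each region's ratio of levels was divided by the genome-wide ratio, 0.378 for DNMT3B1 over DNMT3A2, 2.13 for the knockout over DNMT3B1 and 0.806 for the knockout over DNMT3A2. These comparisons share lines. For DNMT3B1 over DNMT3A2, 2 regions were relatively higher (9.08% of windows) and 1 lower (12.7%). The higher ones were Peg10, on 7 against 2 methylated reads (relative log2 ratio 3.37, 0.97 to 6.67), and H19 (1.74, 1.38 to 2.10). Peg3 was the lower one (-1.67, -3.37 to -0.31). The calls of Peg10 and Peg3 ended with 1 cluster left out. The median was 0.89, against -0.16 over windows, in the 14 regions with more than 3 methylated reads in at least 1 of the lines.

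For the SETD2 knockout over DNMT3B1, 6 regions were relatively lower (9.25% of windows) and 2 higher (11%). The lower ones included the 4 regions with methylated stretches. Plagl1 had a relative log2 ratio of -8.45 (-13.76 to -5.96), on 1 methylated read against 192, Zrsr1 of -4.89 (-6.25 to -3.77), H19 of -3.80 (-4.45 to -3.20) and Gnas of -2.74 (-3.25 to -2.25). Mcts2 (-3.09, -4.04 to -2.21) and Airn (-2.42, -3.85 to -1.13), which hold the patches named above, were the others. Mest was higher at 1.99 (0.52 to 3.94), on 40 against 4 methylated reads, and Grb10 at 2.32 (0.70 to 4.65). With 1 cluster left out Mcts2 went to -0.83, Airn to -0.99 and Mest to 1.56, and these 3 calls ended, so that 4 lower and 1 higher were kept with every cluster left out in turn. The median over the 17 regions with such a value was -0.55, against 0.11 over windows.

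For the knockout over DNMT3A2, 7 regions were relatively lower (9.64% of windows) and 4 higher (9.47%). The lower ones were the same 6 as against DNMT3B1, and Peg3 (-1.36, -2.31 to -0.47). When 1 cluster of 500 bp was left out, Mcts2 (-2.68) turned to 0.43 and Airn (-2.03) to 0.64, while H19 (-2.06) went to -0.11 and Peg3 to -0.67. Higher were Grb10 (3.53, 1.91 to 5.85), Peg10 (2.81, 0.78 to 5.95), Peg13 (2.18, 1.05 to 3.49) and the region on chromosome 12 (1.03, 0.27 to 1.82). The calls of Peg10 and the chromosome 12 region ended with 1 cluster left out. The number of methylated reads behind the higher ones was small, 2 to 25 with DNMT3A2.

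Every region lay below its surroundings in the knockout. The flanks, from 2 kb to 12 kb outside each edge, had medians of 8.12% (DNMT3A2), 2.76% (DNMT3B1) and 5.85% (knockout). Flanks were not matched in CpG density to the regions, and the share of other windows below their own flanks was not computed. Of the 19 regions, 15, 16 and 19 stood below their own flanks. Those above were H19, Plagl1 and Zrsr1 with both lines that have SETD2, and Mcts2 with DNMT3A2. Plagl1 stood at 31.1% against flanks of 8.13% with DNMT3A2 and at 0.132% against 6.07% in the knockout. The flanks of Grb10 were the least methylated with DNMT3A2, at 1.80%, with the interval at 0.120%. In the knockout, DNA elsewhere stood at 7.11% in the density bin from 10 CpGs per kb and at 0.532% in that from 60. Grb10 and Inpp5f lay below their flanks there but above their density (log2 ratios 0.96 and 0.90), while the other 17 lay below it.

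The promoter table held the gene of 14 of the 19 regions, and for 10 of them a promoter could be placed within the interval by its CpGs. The hexamer TGCCGC was searched on both strands. It was present in 6 of these 10 promoters (Mcts2, Nnat, Mest, Nap1l5, Snrpn and Plagl1), and in 11.6% of all 32851 promoters of that length (3813). The hexamer itself holds a CpG, and these shares were not matched for CpG content, so enrichment was not tested. In Plagl1 it lies at bases 161 to 166, within the block of methylated CpGs, and in Mcts2 at bases 4 to 9, outside the capitals. In Nap1l5, at 0 methylated reads, it lies at bases 227 to 232 and 278 to 283. Of the 6 promoters with the hexamer, 4 had no methylated read in any line.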

How the data were processed

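For the DNMT3A2 and DNMT3B1 lines the values are counts of methylated reads and of all reads at each CpG site, per the file headers, with 1 set per line, taken as both sequencing runs together, and the authors' file of the SETD2 knockout gave coverage, counts of methylated reads and their fraction. The 2 knockout files were identical, were used once, and listed only sites of at least 10 reads. Positions refer to mm9 (per the submitters' processing notes). The sources used here do not give the aligner, the methylation caller or how duplicates were treated. Duplicate reads or copies collapsed onto 1 position would enter the counts.

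Samples were grouped by title. Sites had at least 5 reads per line and at most 45 (DNMT3A2), 40 (DNMT3B1) and 80 (knockout). CpG density counts the sites up to 500 bp away. Windows had at least 10 CpGs per kb, 10 sites and 100 reads per line. A level of 0 was set to a floor of 3 reads in ratios. Ratios of lines had exact conditional binomial intervals. The calls were tested on simulated data. All 19 intervals are accounted for, and those counted in any comparison are given with values. Not every call against density is written out. The intervals and lists were chosen with earlier results of these data known. Intervals were computed with scipy 1.17.1, tables with pandas 2.3.3 and numpy 2.4.6 and plots with matplotlib 3.10.9, under Python 3.11.15. Alternatives were other coverage limits, subtraction of the level of very dense DNA, weighting of sites, the dense part of an interval, other density bins and windows, and each 500 bp cluster left out.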

Additional observations from a re-analysis of the deposited data

How the results depend on the processing

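No paired analysis was possible because each line was 1 library and no test between samples was made. With sites over 2 times the median coverage left out, chosen after the data were seen, regions higher than their density numbered 0 with DNMT3A2 and 3 with DNMT3B1, and 1 was lower with DNMT3B1. In that setting 1 region was higher for DNMT3B1 over DNMT3A2, 0 were higher for the knockout over DNMT3B1, and 1 was higher and 2 lower for the knockout over DNMT3A2. Signs turned there for log2 observed over expected with DNMT3A2 of Mcts2 (-0.66) and Plagl1 (-0.044), with DNMT3B1 of H19 (-1.59), for the knockout over DNMT3A2 at H19 (0.023) and, through the floor of 3 reads for DNMT3B1, for the knockout over DNMT3B1 at Grb10 (-1.15). For the rest the cause was not tested.

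Leaving out 1 cluster of 500 bp turned Mcts2 with DNMT3A2 (-1.11) and the knockout over DNMT3A2 at Mcts2 (0.43) and Airn (0.64). Counted with every cluster left out in turn were 1 region higher and 6 lower than their density with DNMT3A2, 3 and 2 with DNMT3B1, and 7 lower in the knockout. The same demand left 1 higher and 0 lower for DNMT3B1 over DNMT3A2, 1 higher and 4 lower for the knockout over DNMT3B1, and 2 higher and 3 lower for the knockout over DNMT3A2.

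For DNMT3B1 over DNMT3A2, 5 regions were higher and 2 lower with a minimum of 1 read and likewise with no coverage maximum, 2 were lower with the dense-DNA level subtracted, and 4 higher and 0 lower with the mean of site fractions. The knockout had 1 region above its density with a minimum of 10 reads, 2 with subtraction and 1 with site fractions, and 2 higher against DNMT3A2 with subtraction. In the dense part of the intervals 5 were higher with DNMT3A2 and 2 lower with DNMT3B1, and with 6 density bins 7 were lower with DNMT3B1. The other 76 counts stayed within 1.5 times, flank counts included. Depth limits the regions with few methylated reads, such as Snrpn at 300 reads.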
